A study of Sus scrofa with 54 samples.

Results

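LGALS3 (ENSSSCG00000005055) and CHI3L1 (ENSSSCG00000015476) encode secreted sugar-binding proteins, galectin-3 and YKL-40, that are used as markers of tissue injury. They are 2 of the 25114 pig genes in the deposited counts. The pair was chosen from the study's list of inflammatory genes that were higher in a few deviating follow-up micro-biopsies than in other micro-biopsies, so the micro-biopsy levels chose the pair. Those levels are therefore given as a description, with no test between the timepoints.

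Galectin-3 binds beta-galactosides on cell-surface and matrix glycoproteins. It is made by macrophages and activated fibroblasts and is known in the heart for its rise with inflammation and fibrosis. YKL-40 belongs to the chitinase family and binds chitin-like sugars without cleaving them. Neutrophils, macrophages and other cells secrete it during inflammation and tissue remodelling.

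RNA was sequenced from 54 samples of 5 pigs, described in the study as naive adult female Yorkshire-Swedish farm swine that were sampled again a week later. Myocardium taken with the miniaturised device (micro-EMB) gave 20 samples at baseline, from pigs 4491, 4493, 4494, 4664 and 4665, and 12 at follow-up, from all of these but 4493. Pigs 4491 and 4494 also gave all endomyocardial biopsies taken with conventional forceps (conventional EMB), 6 at baseline and 4 at follow-up, and 6 blood and 6 skeletal muscle samples at baseline. No follow-up blood or muscle was sequenced among these samples, and the follow-up hearts had already been sampled at baseline. Samples of a group come from few pigs, so the p-values below measure only the spread between these samples.

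Between 64216 and 4649613 reads were counted per sample, with a median of 1800054.5. Of the 14 samples under 1000000 reads, 12 were heart samples. The study left out some micro-EMB samples for poor mapping and few expressed genes, and further samples for blood contamination. All sequenced samples are kept here, so the levels below include samples that the study left out. In the bulk samples, fewer cells of a type and less RNA per cell cannot be told apart. Blood and skeletal muscle carried their own markers, but 5 of the 42 heart samples were low in cardiomyocyte markers, with under 5% of the median summed level in conventional EMB at baseline. These were conventional EMB sample 38 at baseline and sample 55 at follow-up, micro-EMB samples 4 and 21 at baseline and micro-EMB sample 36 at follow-up (numbers are those of the study's sample titles). Results that rest on them are given with and without them.

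LGALS3 was detected in most samples at low levels and was very high in 2 follow-up micro-EMB samples. Levels are in CPM, counts of a gene per 1000000 counted reads of the sample, and compare samples for 1 gene, not one gene with another. In blood, LGALS3 ranged from 2.06 to 100.2 CPM with a median of 14.0 (n = 6, all detected). The highest blood values, 72.9 and 100.2 CPM, were samples 51 and 20, one from each pig and the deepest blood libraries. The remaining blood samples reached at most 16.4 CPM.

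In skeletal muscle LGALS3 ranged from 0 to 24.5 CPM with a median of 4.38 (5 of 6 detected). In conventional EMB at baseline it ranged from 0 to 36.6 CPM with a median of 7.66 (5 of 6 detected). At follow-up, conventional EMB samples 3, 50 and 56 had no LGALS3 read, and sample 55 had 15.7 CPM from 5 reads. The counts of 0 allow up to 40.1 CPM in sample 3, 1.59 in sample 50 and 4.84 in sample 56 (3 reads of the total), so in sample 3 a level above that of every conventional EMB sample at baseline could have gone undetected.

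In micro-EMB at baseline LGALS3 ranged from 0 to 79.0 CPM with a median of 5.88 (14 of 20 detected). Baseline samples 9 and 10, at 0 for both genes, had only 64216 and 73988 counted reads. At follow-up it ranged from 0 to 443 CPM with a median of 15.0 (11 of 12 detected). The top of this range was sample 8 of pig 4491, with 355 reads (443 CPM, 95% counting interval 398 to 492), and sample 22 of pig 4494, with 602 reads (389 CPM, 358 to 421). They were the only heart samples above every blood sample. The next follow-up samples, 39 and 44 of pig 4494, had 58.2 and 50.6 CPM, below the highest baseline micro-EMB samples, 4 (79.0 CPM) and 26 (59.4 CPM).

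By median, LGALS3 was ordered micro-EMB at follow-up, blood, conventional EMB at baseline, micro-EMB at baseline, skeletal muscle and conventional EMB at follow-up. Each neighbouring pair of groups in this order overlapped.

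CHI3L1 was high in every blood sample, and a few heart samples were as high as blood. In blood it ranged from 74.8 to 272 CPM with a median of 150 (n = 6, all detected). In skeletal muscle it ranged from 0 to 33.8 CPM with a median of 1.17 (3 of 6 detected), and no muscle sample reached the lowest blood sample.

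In conventional EMB at baseline CHI3L1 ranged from 1.60 to 298 CPM with a median of 6.98 (6 of 6 detected). The highest value, from 668 reads in sample 38, stood far above the next, 22.0 CPM in sample 40. At follow-up the 4 conventional EMB samples had 1.06 (sample 50), 30.6 (sample 56), 107 (sample 3) and 198 CPM (sample 55). The value of sample 3 came from 8 reads and had a 95% counting interval of 46.2 to 211 CPM.

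In micro-EMB CHI3L1 ranged from 0 to 219 CPM at baseline with a median of 1.91 (13 of 20 detected), and from 0 to 212 CPM at follow-up with a median of 5.89 (10 of 12 detected). A single sample stood at each top, sample 4 at baseline with 97 reads and sample 52 of pig 4665 at follow-up with 455 reads. The next values were 63.3 CPM in baseline sample 19 and 21.1 CPM in follow-up sample 44. Sample 38 was the only heart sample above every blood sample. The order by median was blood, conventional EMB at follow-up, conventional EMB at baseline, micro-EMB at follow-up, micro-EMB at baseline and skeletal muscle, and each neighbouring pair overlapped.

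**Figure D1:**
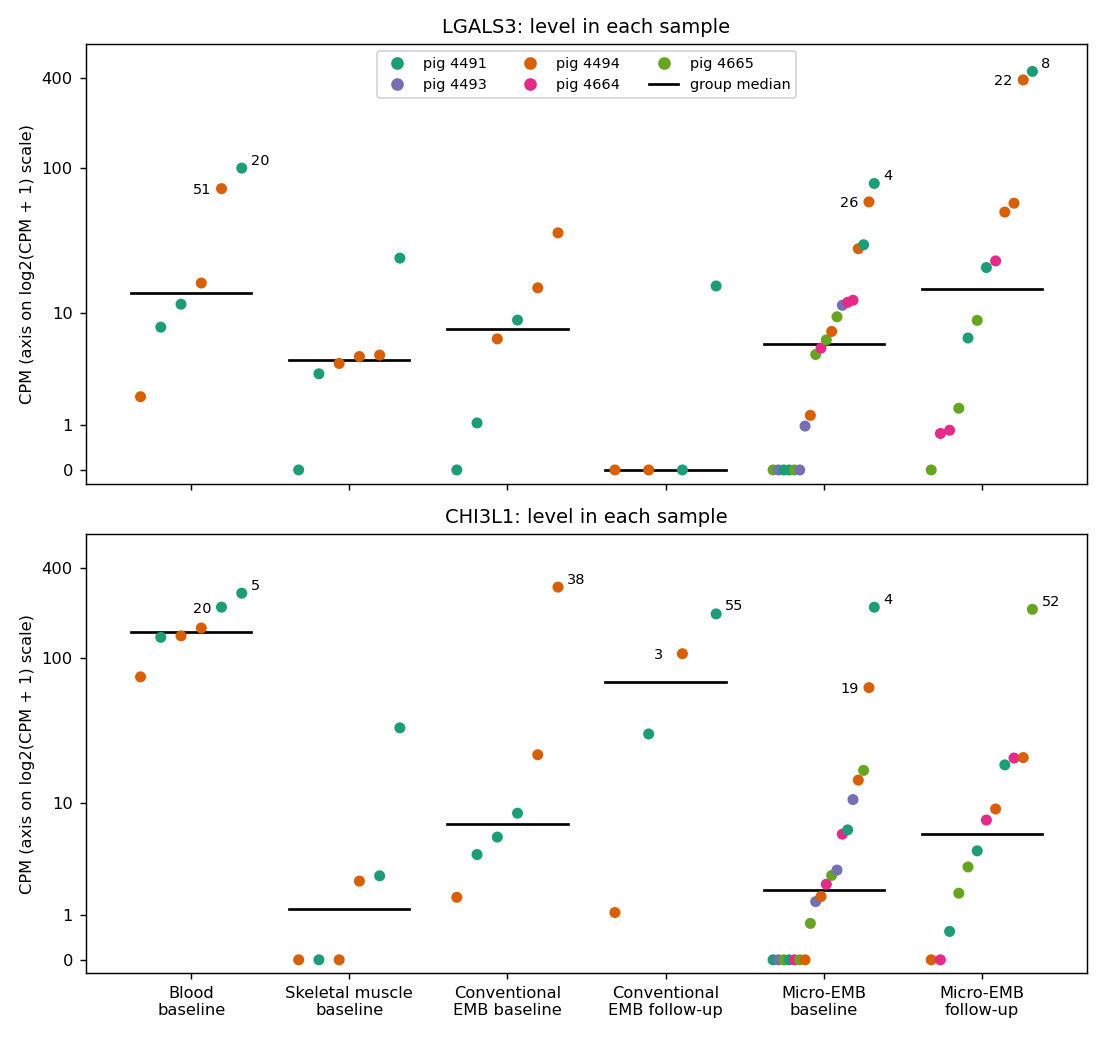
LGALS3 (upper panel) and CHI3L1 (lower panel) in each of the 54 samples, in CPM on a log2(CPM + 1) axis, by group and coloured by pig, with a line at the group median and with study sample numbers beside those of the top 2 samples of a group that exceed 50 CPM. LGALS3 reaches 443 and 389 CPM in follow-up micro-EMB samples 8 and 22, while the high CHI3L1 samples (38, 4, 52 and 55) are other heart samples and the blood samples.

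Of the comparisons among tissues, which did not enter the choice of the pair, only CHI3L1 in blood against skeletal muscle passed the test. CHI3L1 was higher in blood by a log2 fold change of 5.30 (SE 1.37, 95% interval 2.47 to 8.13, adjusted p = 0.00359 by edgeR's quasi-likelihood test, n = 6 and 6). Of all genes tested, 38.4% were called in this comparison, 1827 higher and 3145 lower in blood, where called means an adjusted p under 0.05 and a log2 fold change past 1. The groups did not overlap, and the call held with each sample left out in turn, with log2 fold changes of 4.88 to 6.54. LGALS3 was not called there (log2 fold change 2.35, SE 1.12, 95% interval 0.04 to 4.66, edgeR adjusted p = 0.0981), and the difference fell to 1.15 without blood sample 20.

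Blood and conventional EMB at baseline were compared next, where 30.3% of all genes were called. Neither gene was called. The log2 fold change of LGALS3 was 1.44 (SE 1.12, 95% interval -0.86 to 3.75, edgeR adjusted p = 0.354) and that of CHI3L1 was 1.06 (SE 1.22, 95% interval -1.45 to 3.57, edgeR adjusted p = 0.553). A single biopsy decided the value of CHI3L1. Without conventional EMB sample 38, CHI3L1 was higher in blood by 4.10 (edgeR adjusted p = 0.000951), and without all heart samples low in cardiomyocyte markers by 4.05 (edgeR adjusted p = 0.000608). LGALS3 then stood at 2.41 (edgeR adjusted p = 0.0642).

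Between skeletal muscle and conventional EMB at baseline, 6.27% of all genes were called, and neither member was. LGALS3 had a log2 fold change of -0.91 (SE 1.14, 95% interval -3.26 to 1.44, edgeR adjusted p = 0.779), which became 0.04 without sample 38. CHI3L1 had a log2 fold change of -4.24 (SE 1.48, 95% interval -7.28 to -1.19, edgeR adjusted p = 0.0888). This difference also rested on sample 38, since without it CHI3L1 stood at -1.32. Without muscle sample 57, the highest in muscle and at 325907 reads the shallowest there, it stood at -5.08 (edgeR adjusted p = 0.0285).

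Between the timepoints of conventional EMB, 0% of all genes were called by edgeR, although 1043 of 12944 had an unadjusted p under 0.05 and DESeq2 called 68. The log2 fold change of LGALS3 from baseline to follow-up was -2.31 (SE 1.62, 95% interval -5.64 to 1.03, edgeR adjusted p = 0.715, n = 4 and 6) with 5 LGALS3 reads at follow-up, all in sample 55. Without that sample every follow-up library was at 0, and the fitted value of -7.55 depends on the prior count and is no bound. That of CHI3L1 was -0.48 (SE 1.43, 95% interval -3.44 to 2.48, edgeR adjusted p = 0.951). The direction of CHI3L1 turned with sample 38, to 2.42 without it, while without sample 55 CHI3L1 stood at -1.50. The interval spans changes of several log2 units either way.

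Between micro-EMB and conventional EMB at baseline in pigs 4491 and 4494, 0% of all genes were called by edgeR, with 314 of 9717 at an unadjusted p under 0.05 and 12 called by DESeq2. Some of these micro-EMB samples may be among those on which the pair was chosen. LGALS3 in micro-EMB was at 1.15 on the log2 scale relative to conventional EMB (SE 1.16, 95% interval -1.13 to 3.44, edgeR adjusted p = 0.999, n = 8 and 6), at 0.55 without micro-EMB sample 4 and at 1.96 without conventional EMB sample 38. CHI3L1 was at -0.85 (SE 1.55, 95% interval -3.89 to 2.19, edgeR adjusted p = 0.999), at -2.54 without sample 4 and at 1.69 without sample 38. The median of all genes in this comparison was -0.47.

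**Figure D2:**
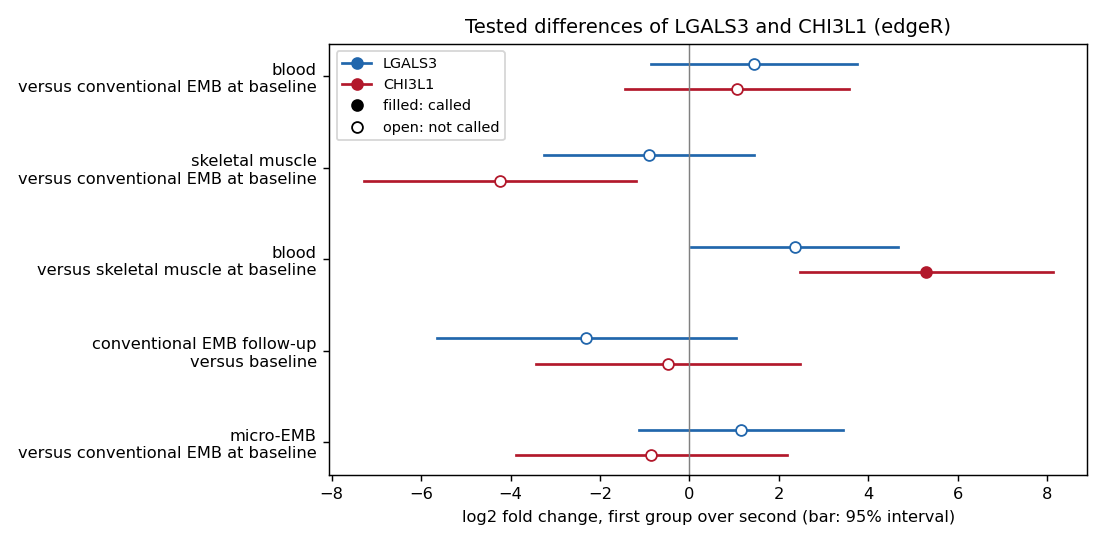
Log2 fold changes of LGALS3 and CHI3L1 in the 5 tested comparisons, first-named group over the second, with 95% intervals from edgeR; filled points are called and open points are not. CHI3L1 in blood against skeletal muscle, at 5.30, is the only filled point, and the interval of CHI3L1 in skeletal muscle against conventional EMB, at -4.24, also lies off 0 but misses the adjusted threshold.

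In micro-EMB, the fit over all 32 samples with the pig as a term put LGALS3 at follow-up 1.38 above baseline on the log2 scale, and CHI3L1 1.14 above. The median of all genes in this fit was 0.31. These values chose the pair and carry no test, and each leaned on 1 or 2 samples. LGALS3 stood at 0.48 without sample 8, and at 0.28 without the samples under 1000000 reads, of which sample 8 is one. CHI3L1 stood at -0.61 without sample 52 and at 2.01 without baseline sample 4.

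LGALS3 at follow-up had different medians in different pigs, a difference that was not tested. In pigs 4491 and 4494, which also gave the conventional EMB samples, the 6 follow-up micro-EMB samples ranged from 6.53 to 443 CPM with a median of 54.4 (6 of 6 detected). In pigs 4664 and 4665, which gave micro-EMB samples alone among those sequenced, the 6 follow-up samples ranged from 0 to 23.5 CPM with a median of 1.20 (5 of 6 detected). The ranges overlapped. At baseline the median was 17.9 CPM in pigs 4491 and 4494 (n = 8), and 12.0 CPM in pig 4664 (n = 3), 4.84 CPM in pig 4665 (n = 5) and 0.48 CPM in pig 4493 (n = 4). The pig and what had been done to its heart cannot be told apart here. The CHI3L1 medians in the same sets at follow-up were 6.67 and 5.31 CPM, and its highest sample came from pig 4665.

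The share of blood in a biopsy was estimated to see how much of each level blood could bring. It was read from 54 genes of the study's own blood list that were strong in every blood sample and nearly absent in muscle, neither member among them, as a percentage of their summed level in the median blood sample. The percentage times the level of a member in blood gives the level that blood could bring, from the median blood sample or, more generously, from the highest. Blood content had a median of 2.61% in conventional EMB at baseline, 16.1% at follow-up, 1.51% in micro-EMB at baseline and 2.68% at follow-up. It was 10% or more in 7 heart samples, namely 3, 4, 19, 21, 38, 44 and 55. The genes used include lymphocyte genes such as LCK, MS4A1 and CD79B beside red cell genes such as HBM and ALAS2. A high content by these genes is therefore not a measure of red cells alone. Blood was sequenced at baseline alone, so levels in follow-up blood were not measured. Before comparing the deviating micro-biopsies, the study left out samples with signs of blood contamination. Low blood in those micro-biopsies was therefore set in advance, by the study's own measure of blood.

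The highest LGALS3 samples held little blood. Sample 8 had a blood content of 3.01%, at which the highest blood sample would bring 3.01 CPM, and its level of 443 CPM was 147 times that. Sample 22 had 4.28%, enough for 4.29 CPM against 389 CPM measured. Sample 39 had 1.71%, enough for 1.71 CPM against 58.2 CPM. In these 3 biopsies LGALS3 was 34.0 to 147 times the level that the highest blood sample could bring. This is a description, as these biopsies may be among those that chose the pair.

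For the other LGALS3 samples above 50 CPM the content by the blood genes was larger. Micro-EMB sample 26 at baseline had a blood content of 5.68%, enough for 5.69 CPM of its 59.4 CPM. Sample 44 could receive 18.5 CPM of its 50.6 CPM, and sample 4, with the highest blood content of any heart sample at 32.3%, 32.4 CPM of its 79.0 CPM. Conventional EMB sample 55 had 15.7 CPM where blood could bring 26.5 CPM. Over the 42 heart samples, the lower counting bound of LGALS3 was above the level from the median blood sample in 26 and above the level from the highest in 22.

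CHI3L1 was high mainly in samples of high content by the blood genes, with sample 52 apart. Sample 52 had a blood content of 2.40%, enough for 6.52 CPM, and its 212 CPM was 32.5 times that. The other high samples were all among the 7 of highest content by these genes. Sample 38 had 298 CPM where the highest blood sample could bring 66.5 CPM at its content of 24.5%. Sample 4 had 219 CPM against 87.8 CPM, and sample 55 had 198 CPM against 71.9 CPM.

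In these 3 samples CHI3L1 was 2.49 to 4.48 times the level that the highest blood sample could bring. Samples 3 and 19 were not above it within counting error, with 107 CPM against 84.4 CPM and 63.3 CPM against 43.5 CPM. Samples 21 and 44 were below it, with 0 CPM against 37.5 CPM and 21.1 CPM against 50.2 CPM. By the red cell markers described below, samples 21 and 44 held 0% and 0.18%. Over the 42 heart samples, the lower counting bound of CHI3L1 was above the level from the median blood sample in 17 and above that from the highest in 11.

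Different blood genes gave different contents. By 5 red cell markers, whose haemoglobin transcripts fill blood libraries, sample 38 held 1.52%, sample 4 held 1.07%, sample 55 held 8.86%, sample 8 held 0.49% and sample 52 held 0.02%. By that measure LGALS3 was above the level from the median blood sample in 29 heart samples and CHI3L1 in 31. By 6 neutrophil markers the counts were lower, 20 heart samples for LGALS3 and 14 for CHI3L1. CHI3L1 in sample 38 was 131 times the level from the median blood sample by red cell markers and 0.80 times by neutrophil markers, and in sample 55 it was 14.9 and 0.33 times. The answer for samples 38 and 55 thus differed between the markers. By neutrophil markers the content was 250% in sample 38 and 395% in sample 55, while blood samples ranged from 29.3% to 273%. A content above 100% is no share of blood, so the neutrophil measure cannot set what blood could bring to samples 38 and 55. Samples 8, 22, 39 and 52 had no neutrophil marker read. The summed level of 4 lymphocyte markers, 1395 CPM in the median blood sample, was 727 CPM in sample 4 and 191 CPM in sample 38. The content read from white cell and from red cell markers thus differed in the samples that stand high in CHI3L1.

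**Figure D3:**
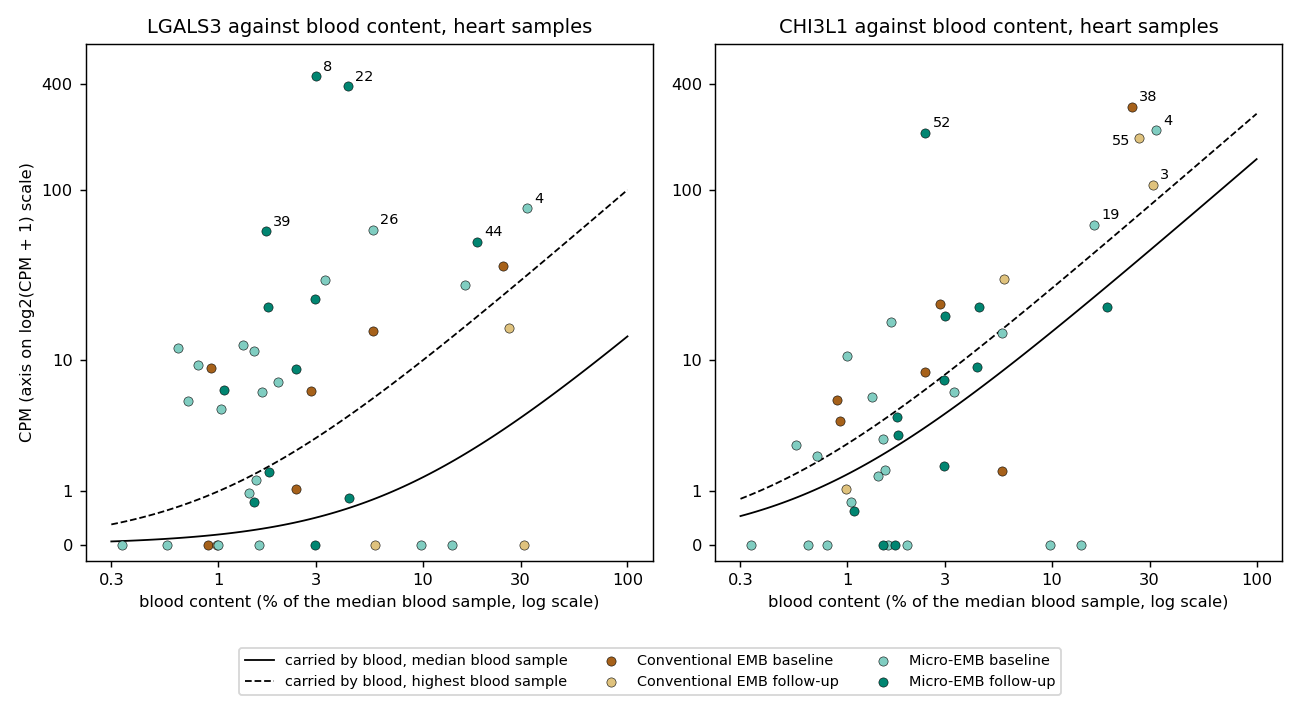
LGALS3 (left) and CHI3L1 (right) in the 42 heart samples, in CPM on a log2(CPM + 1) axis, against blood content as a percentage of the median blood sample on a log axis; points are coloured by group, and the solid and dashed lines give the level that the median and the highest blood sample would bring. For LGALS3, samples 8, 22 and 39 lie far above both lines at 1.71% to 4.28% blood, and for CHI3L1 sample 52 does at 2.40%, while samples 38, 4 and 55 lie 2.49 to 4.48 times above the dashed line at 24.5% to 32.3%.

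The samples with the most of either gene (8, 22, 38, 4, 52 and 55) had fewer cardiomyocyte marker reads than the median conventional EMB sample at baseline, and 38, 4 and 55 had under 5% of its level. The summed level of 6 cardiomyocyte markers (among them MYH6, TNNT2 and RYR2, of the contractile apparatus and calcium release) had a median of 96001 CPM in conventional EMB at baseline. It was 68.3 CPM in sample 38, 205 CPM in sample 4 and 495 CPM in sample 55, which were the heart samples with the fewest. In sample 52 it was 6224 CPM, in sample 8 13365 CPM and in sample 22 14205 CPM. Samples 36 and 21 show that the reverse did not hold, since with 515 and 1197 CPM of these markers they had 0.75 and 0 CPM of LGALS3 and no CHI3L1 read.

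The high samples differed in their levels of fibroblast and matrix markers. The summed level of 8 fibroblast and matrix markers, such as the collagens COL1A2 and COL3A1 and fibronectin, FN1, was 71596 CPM in sample 8, 30703 CPM in sample 22 and 73196 CPM in sample 52. The median in micro-EMB was 13758 CPM at baseline and 36451 CPM at follow-up. In samples 4, 38 and 55 it was 1040, 3000 and 956 CPM. The study reported higher expression of collagen-related genes in the deviating follow-up micro-biopsies. Samples 8, 22 and 52 may be among those, so their matrix levels are not independent of the choice of the pair. Sample 36 had the most of all heart samples, 97912 CPM, with 0.75 CPM of LGALS3 and no CHI3L1 read. The relation of matrix level to either gene was not tested.

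Macrophage marker levels were higher in samples 26 and 44, both among the heart samples above 50 CPM of LGALS3, than in the samples with the most LGALS3. The summed level of 9 macrophage markers, whose median in micro-EMB at follow-up was 367 CPM, was 436 CPM in sample 8 and 196 CPM in sample 22, the highest in LGALS3. It was 2594 CPM in sample 26, the highest of all micro-EMB samples, and 815 CPM in sample 44. Of the single markers CD14, a monocyte and macrophage receptor for lipopolysaccharide, had the levels most like LGALS3 over the 42 heart samples. Its Spearman's rho was 0.63 there (rank 27 of 16588 genes) and 0.46 over the 30 with 1000000 reads or more. The other macrophage markers ranged from 0.02 (FCGR1A) to 0.38 (C1QA) over the 42 samples. Over the 30 they ranged from -0.06 (CD68) to 0.29 (MARCO), and the lymphocyte marker LCK, at 0.52, was above CD14. The summed level of the 6 neutrophil markers, 62.7 CPM in the median blood sample and mostly MMP9 there, was above that in several samples high in either gene. It was 819 CPM in sample 44, 253 CPM in sample 19, 248 CPM in sample 55 and 157 CPM in sample 38, and 24.8 CPM in sample 4. Micro-EMB sample 24 at baseline was also above the median blood sample, at 199% of its level, but had no read of LGALS3 or CHI3L1. In blood, S100A8, LTF and MMP9 were detected while CSF3R, MPO and MMP8 were at 0. The part of cell makeup in the levels of LGALS3 and CHI3L1 was not tested.

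**Figure D4:**
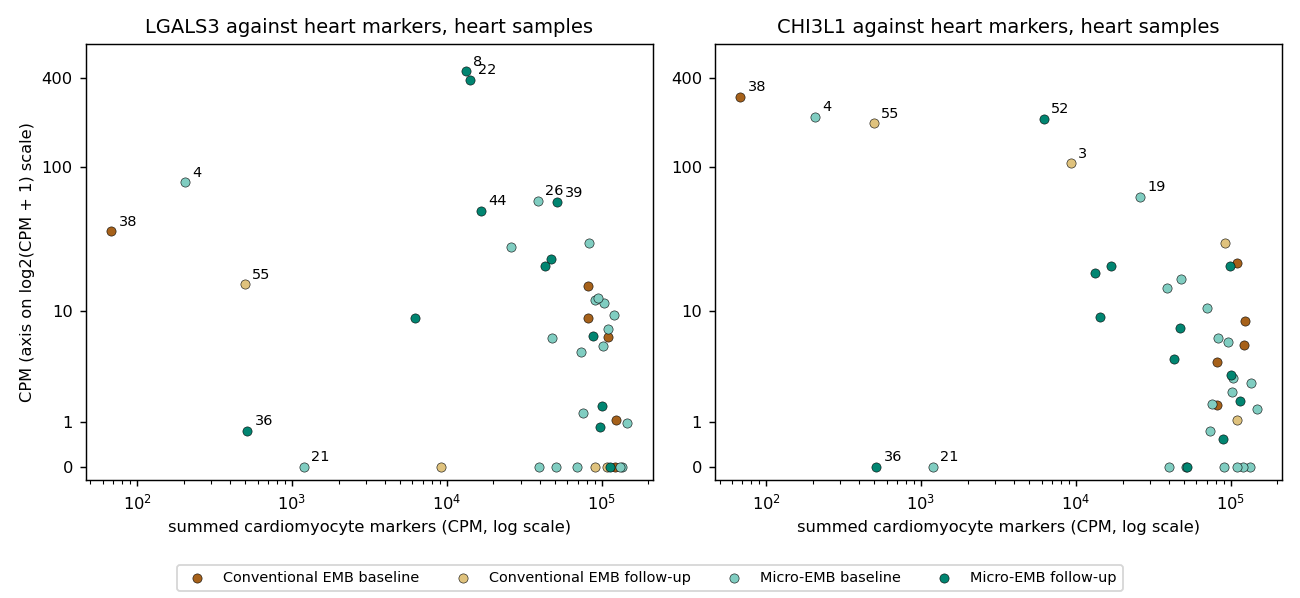
LGALS3 (left) and CHI3L1 (right) in the 42 heart samples, in CPM on a log2(CPM + 1) axis, against the summed level of 6 cardiomyocyte markers in CPM on a log axis, coloured by group. The samples with the most CHI3L1 (38, 4, 52 and 55) all lie at 6224 CPM of heart markers or less, LGALS3 peaks at 13365 and 14205 CPM in samples 8 and 22, and samples 36 and 21 lie low on both axes.

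The pair did not move as one. Of the heart samples above 50 CPM for either gene, sample 4 alone was above it for both. Samples 8 and 22 had 18.7 and 9.05 CPM of CHI3L1, sample 52 had 8.85 CPM of LGALS3, and sample 39 had 58.2 CPM of LGALS3 with no CHI3L1 read. Across the 42 heart samples, which share pigs and differ in depth, Spearman's rho between both genes was 0.35, and 0.25 over the 30 samples with 1000000 reads or more.

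**Figure D5:**
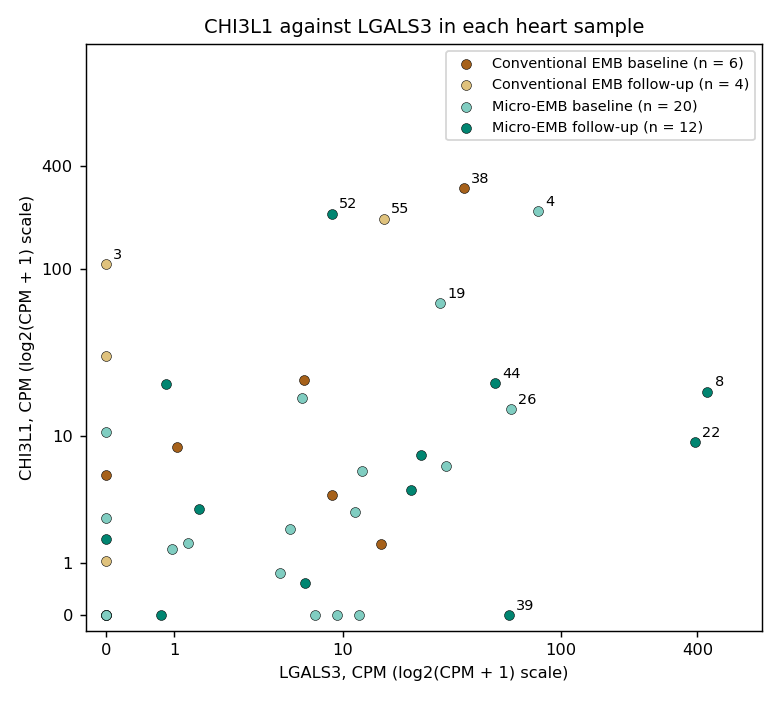
CHI3L1 against LGALS3 in each of the 42 heart samples, both in CPM on log2(CPM + 1) axes, coloured by group and labelled where LGALS3 exceeds 35 CPM or CHI3L1 exceeds 60 CPM. The LGALS3-high samples 8 and 22 lie to the right, the CHI3L1-high samples 52, 55, 38 and 3 lie at the top left and centre, and sample 4 (79.0 and 219 CPM) is the one that is above 50 CPM for both.

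The genes whose levels were most like LGALS3 across the 42 heart samples were SLC1A5, a glutamine transporter (rho 0.82), MAN1A1, a mannosidase that trims N-glycans (0.74), TIMP1, an inhibitor of matrix metalloproteinases (0.72), BIN3 (0.72) and CAPG, an actin-capping protein (0.70). Over the 30 samples with 1000000 reads or more, the rho of SLC1A5 with LGALS3 was 0.76. For CHI3L1 the named genes were ICAM3, an adhesion molecule of white cells (0.78), ZNF414 (0.77) and KRI1 (0.76), beside 2 identifiers with no symbol. These are rank correlations of CPM among 16588 genes in samples of unequal depth, given as a description.

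Relatives of both genes were counted in the same way. Of 8 galectins listed, 6 were matched and 3 were tested among the control tissues (2 in the comparison of devices), and none was called. The share of all genes called was 30.3% in blood and 6.27% in muscle against conventional EMB and 38.4% in blood against muscle, and 0% between timepoints or devices, where the count carries no information on galectins. LGALS8, a galectin with a pair of sugar-binding domains, was detected in every blood, muscle and conventional EMB sample, with medians of 76.3 CPM in blood and 30.8 CPM in conventional EMB at baseline (log2 fold change 0.86, SE 0.40, edgeR adjusted p = 0.101). It had medians of 41.2 CPM in micro-EMB at baseline and 78.8 CPM at follow-up. LGALS2 and LGALS12 had no read in blood or in conventional EMB at baseline, and medians of 21.4 and 16.6 CPM in conventional EMB at follow-up (3 of 4 detected for each). Samples 3, 55 and 56 of that group were under 1000000 reads, so a few reads can give such levels.

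All 7 genes of the chitinase family were matched and 6 were tested among the control tissues, and CHI3L1 in blood against muscle was the one call. CHIT1, the active chitinase of macrophages, had a median of 2.72 CPM in blood and 0 CPM in muscle, in conventional EMB at baseline and in micro-EMB at both timepoints. In conventional EMB at follow-up its median was 35.9 CPM (highest 81.5, 3 of 4 detected), and its log2 fold change from baseline was 3.14 (SE 1.95, edgeR adjusted p = 0.685). CHIA, the acidic chitinase, had no read in blood and a median of 19.6 CPM in conventional EMB at follow-up. The highest CHIT1 and CHIA levels of any conventional EMB sample were therefore at follow-up, in the group where the CHI3L1 median was also highest among heart groups. Samples 3, 55 and 56 of that group had only 74767, 318946 and 619934 counted reads, so a few reads can give such levels. Samples 3 and 55 were also rich in blood. The part of depth and blood in this pattern was not tested. Across the 42 heart samples, Spearman's rho with CHI3L1 was 0.58 for CHIA, 0.56 for CHI3L2 and 0.51 for CHIT1, and over the 30 deeper samples 0.51, 0.36 and 0.26.

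Among 10 receptors and binding partners, 8 were matched and 7 tested among the control tissues. CD44, the hyaluronan receptor that also binds YKL-40, was higher in blood than in muscle by 3.51 (SE 0.43, edgeR adjusted p = 8.87e-07) and lower in muscle than in conventional EMB at a log2 fold change of -2.53 (edgeR adjusted p = 0.0003). ITGB1, the beta-1 integrin chain and a galectin-3 ligand, was lower than in conventional EMB both in blood (-1.66) and in muscle (-1.09). MERTK, a phagocytic receptor bound by galectin-3, was lower in blood than in conventional EMB (edgeR adjusted p = 0.0308) and than in muscle (-2.50), and LAMP2, a lysosomal glycoprotein, was lower in blood than in conventional EMB (-1.07). The share of all genes called in these comparisons was 30.3% for blood and 6.27% for muscle against conventional EMB, and 38.4% for blood against muscle. Between timepoints and between devices no gene of any kind was called by edgeR, so nothing is read from the receptors there.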

How the data were processed

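The authors deposited whole-number read counts per gene, without normalization, for 54 samples. Per the submitters' processing notes, reads were trimmed with Trim Galore, mapped to Sscrofa10.2 with STAR and counted with featureCounts; versions and the strand setting are not given in the sources used here. Libraries were stranded total RNA from reduced reagent volumes. Gene symbols came from RefSeq and a table of names (Sscrofa11.1, used for names alone, without coordinates), and 64 of 100 symbols in the lists were matched, so unmatched markers are not covered.

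CPM were computed per 1000000 counted reads, with exact Poisson 95% intervals; a count of 0 was read as up to 3 counts. Intervals cover counting error only, as PCR copies are not independent. The quasi-likelihood test of edgeR 4.0.16 (R 4.3.3; TMM factors, genes kept by filterByExpr) was fitted with the pig as a term in 22 control samples, 14 baseline biopsies of pigs 4491 and 4494 and 32 micro-EMB samples. Calls needed a Benjamini-Hochberg adjusted p under 0.05 over all genes and a log2 fold change past 1. The standard error of a log2 fold change was its size divided by the square root of F. Scripts were tested on simulated data.

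Blood content used genes at 50 CPM or more in each blood sample and under 1 CPM in the median muscle sample. Genes named are the members, list genes a result turns on, and the 5 of highest Spearman correlation (mean of at least 1 CPM). The members, lists and tests were chosen with earlier results of these data known. Alternatives were DESeq2 1.42.0, other size factors, no filter, no pig term, summed counts, blood content as a covariate and samples left out. Figures and tables used numpy 2.4.6, scipy 1.17.1, pandas 2.3.3 and matplotlib 3.10.9. Biopsy quality scores were not analysed here.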

Additional observations from a re-analysis of the deposited data

Results flagged for a closer look

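In the blood, skeletal muscle and both conventional EMB groups (4 to 6 samples each), the highest and lowest samples were compared with the rest by Dixon's gap ratio for each gene, 8 tests in all on shared samples. It picks about 5% of tests by chance where values follow a normal distribution, and it picked 4. These levels are skewed and hold zeros, so that rate may not apply and 4 is not read against it. Skeletal muscle sample 57 was far above the other muscle samples for both genes, with 24.5 CPM of LGALS3 against 4.80 CPM in the next and 33.8 CPM of CHI3L1 against 2.61 CPM. This library had 325907 counted reads and a blood content of 6.55%, the most of any muscle sample. Conventional EMB sample 55 at follow-up had 15.7 CPM of LGALS3 where the other samples of its group had 0, from 5 reads and at a blood content of 26.5%. With the others at 0, any read in sample 55 would have been picked. Conventional EMB sample 38 at baseline had 298 CPM of CHI3L1 against 22.0 CPM in the next, at a blood content of 24.5% and 68.3 CPM of summed cardiomyocyte markers. The part of depth and blood content in these values was not tested.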

How the results depend on the processing

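Numbers of genes called moved most. Between the timepoints of conventional EMB, edgeR called 4 genes with DESeq2's size factors, 5 without the pig block, 10 without the filter, 68 by DESeq2, and 0 to 59 with samples left out in turn (59 without sample 50, 6 without 40, 5 without 38 and 2 without 3). Between devices it called 3 without the pig block, 24 without the filter, 12 by DESeq2, 55 without blood-rich samples, 88 without samples low in heart markers, 13 with blood content as a covariate, and 0 to 5 with samples left out. Between skeletal muscle and conventional EMB, DESeq2 called 1273 genes, counts summed per pig gave 0, and leaving out samples gave 524 to 1064. Summed counts gave 1712 calls between blood and conventional EMB and 2315 between blood and muscle. CHI3L1 in muscle against conventional EMB passed the threshold without the pig block (-4.20, adjusted p = 0.0446), by DESeq2 (-3.84, 0.0252) and without the filter (-4.22, 0.00382), and ranged from -5.08 to -1.32 with samples left out. CHI3L1 in blood against conventional EMB ranged from 0.45 to 4.10 with samples left out, and passed without blood-rich samples (4.06, 0.000187) and without samples low in heart markers (4.05, 0.000608). LGALS3 in blood against muscle passed without the filter (2.32, 0.0444) and without blood-rich samples (2.36, 0.0422). Heart samples with CHI3L1 above the level that blood could bring numbered 11 with the highest blood sample, 31 with red cell markers and 14 with neutrophil markers. For LGALS3 these were 22, 29 and 20. The neutrophil content exceeded that of the median blood sample in some heart samples, so its counts set no bound there. The labels give no replicate numbers, so the pig was the only pairing, and removing this block changed no other call. The median of all genes lay at -0.26 between blood and conventional EMB, and at -0.44 with DESeq2's size factors. CHI3L1 in blood against muscle stayed past the threshold under every alternative run. Leaving out samples low in heart markers, and single micro-EMB samples, was chosen after seeing the data. The cause of these changes was not tested. Depth limits both genes, since a count of 0 allows up to 40.1 CPM in conventional EMB sample 3 and 46.7 CPM in micro-EMB sample 9.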
